A study of Mus musculus with 9 samples.

Results

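The genes described here are 9 transcription factor genes of the Sox family that are known from glial and neuronal lineages: the SoxE genes Sox8, Sox9 and Sox10, the SoxC genes Sox4 and Sox11, the SoxD genes Sox6 and Sox13, and the SoxB genes Sox3 and Sox21. The choice is a list of gene names that uses no measured value but was drawn up with earlier results of these data known. They are 9 of the 19 genes called Sox with a number among the 46517 gene identifiers counted. RNA was sequenced from primary mouse glioblastomas of 3 models on a mixed strain background, with 3 tumour libraries in each of Synapsin-cre, NG2-creERTM and Nestin-creERT2. Each model is named for the promoter that drives the Cre recombinase: synapsin is a neuronal gene, NG2 (the gene Cspg4) marks oligodendrocyte precursor cells and also pericytes, and nestin marks neural stem and progenitor cells. In the NG2 and nestin models the recombinase is fused to a modified oestrogen receptor, which makes it depend on tamoxifen. According to the series' design, the models stand for different cells of origin of the tumour. The recombined alleles, the age and the sex of the mice and whether each library was a separate animal are not given in the sources used here, so the p-values measure the spread between these libraries, which may be in part technical.

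Sox proteins bind DNA through a high mobility group domain that bends the double helix, and members of a subgroup share most of that domain and often stand in for each other. In the nervous system Sox9 acts early in glial fate and stays on in astrocytes, while Sox10 follows the oligodendrocyte lineage, where it drives myelin genes, and is also required in neural crest and Schwann cells. Sox8 overlaps with both. Sox4 and Sox11 are factors of immature neurons and progenitors, Sox6 and Sox13 lack an activation domain of their own and modulate SoxE activity, and Sox3 and Sox21 act in neural progenitors, Sox3 as an activator and Sox21 mainly as a repressor.

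Among the genes with a promoter window at hand, Sox8 and Sox21 are those whose window lies inside a gene of the opposite strand, and these 2 windows are printed here as in the RefSeq promoter table of GRCm38.p6, from 250 bases before to 50 bases after the start. The Sox8 window is chr17:25570637-25570936 and the Sox21 window is chr14:118236981-118237280, both on the minus strand and read 5′ to 3′. Capitals mark the matches to the motifs searched on both strands, namely the Sox core motifs ACAAAG and ACAATG, the GC box GGGCGG and the E-box CACGTG.
Sox8: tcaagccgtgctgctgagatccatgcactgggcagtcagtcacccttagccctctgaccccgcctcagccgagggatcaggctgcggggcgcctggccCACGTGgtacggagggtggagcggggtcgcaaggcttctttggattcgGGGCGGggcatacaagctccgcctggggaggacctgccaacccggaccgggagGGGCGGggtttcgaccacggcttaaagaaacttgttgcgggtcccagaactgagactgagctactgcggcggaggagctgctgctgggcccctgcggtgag
Sox21: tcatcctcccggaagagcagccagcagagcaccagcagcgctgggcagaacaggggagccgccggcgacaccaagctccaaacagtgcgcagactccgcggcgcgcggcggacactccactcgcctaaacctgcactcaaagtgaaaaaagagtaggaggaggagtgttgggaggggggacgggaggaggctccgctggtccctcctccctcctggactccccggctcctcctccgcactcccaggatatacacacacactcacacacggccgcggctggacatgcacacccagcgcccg
The Sox8 window held 2 GC boxes, at -104 and -51 from the start, and 1 E-box at -152. Of 32851 promoters in the table, 35.7% held a GC box and 7.15% an E-box. Neither window held a Sox core motif, which 18.7% of promoters held as ACAAAG and 12.6% as ACAATG, and the Sox21 window held none of the 4 motifs. Their GC contents were 66.3% in the Sox8 window and 65.7% in the Sox21 window, with 21 and 22 CpG dinucleotides, against medians of 52.7% and 7 over all promoters. The table held windows for 6 of the 9 genes, 11 in all, and those of Sox3, Sox9 and Sox10 were not analysed here.

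Libraries held between 23557398 and 41099967 counts in genes. Levels are given as library-scaled counts (CPM, the usual unit of reads per gene relative to the library total) scaled by TMM, an edgeR method that evens out composition between libraries, and as CPM per kb of exon where genes are compared with each other. All 9 Sox genes passed the filter on low counts and were tested among 17947 genes with edgeR's quasi-likelihood test on all 9 libraries, with Benjamini-Hochberg adjusted p-values and a threshold of 0.05. Synapsin-cre replicate 1 stood apart from the other libraries. Its 10 mature neuron markers summed to 7336 CPM, against 195 and 82.0 CPM in the other Synapsin-cre libraries, 52.7 to 235 CPM in NG2-creERTM and 763 to 1069.9 CPM in Nestin-creERT2. Its 8 markers of dividing cells summed to 81.1 CPM, against 968 to 2152 CPM in the other 8 libraries. Markers of oligodendrocyte precursors (Pdgfra, Olig1, Olig2, Cspg4 and 3 more) were present in every library. They summed to 589.6 CPM in Synapsin-cre replicate 1 and to 2156 and 3119 CPM in the other Synapsin-cre libraries. Sums were 2609 to 6458 CPM in NG2-creERTM and 1827 to 7858 CPM in Nestin-creERT2. In bulk tissue, fewer cells of a type and less RNA per cell cannot be told apart.

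**Figure D1:**
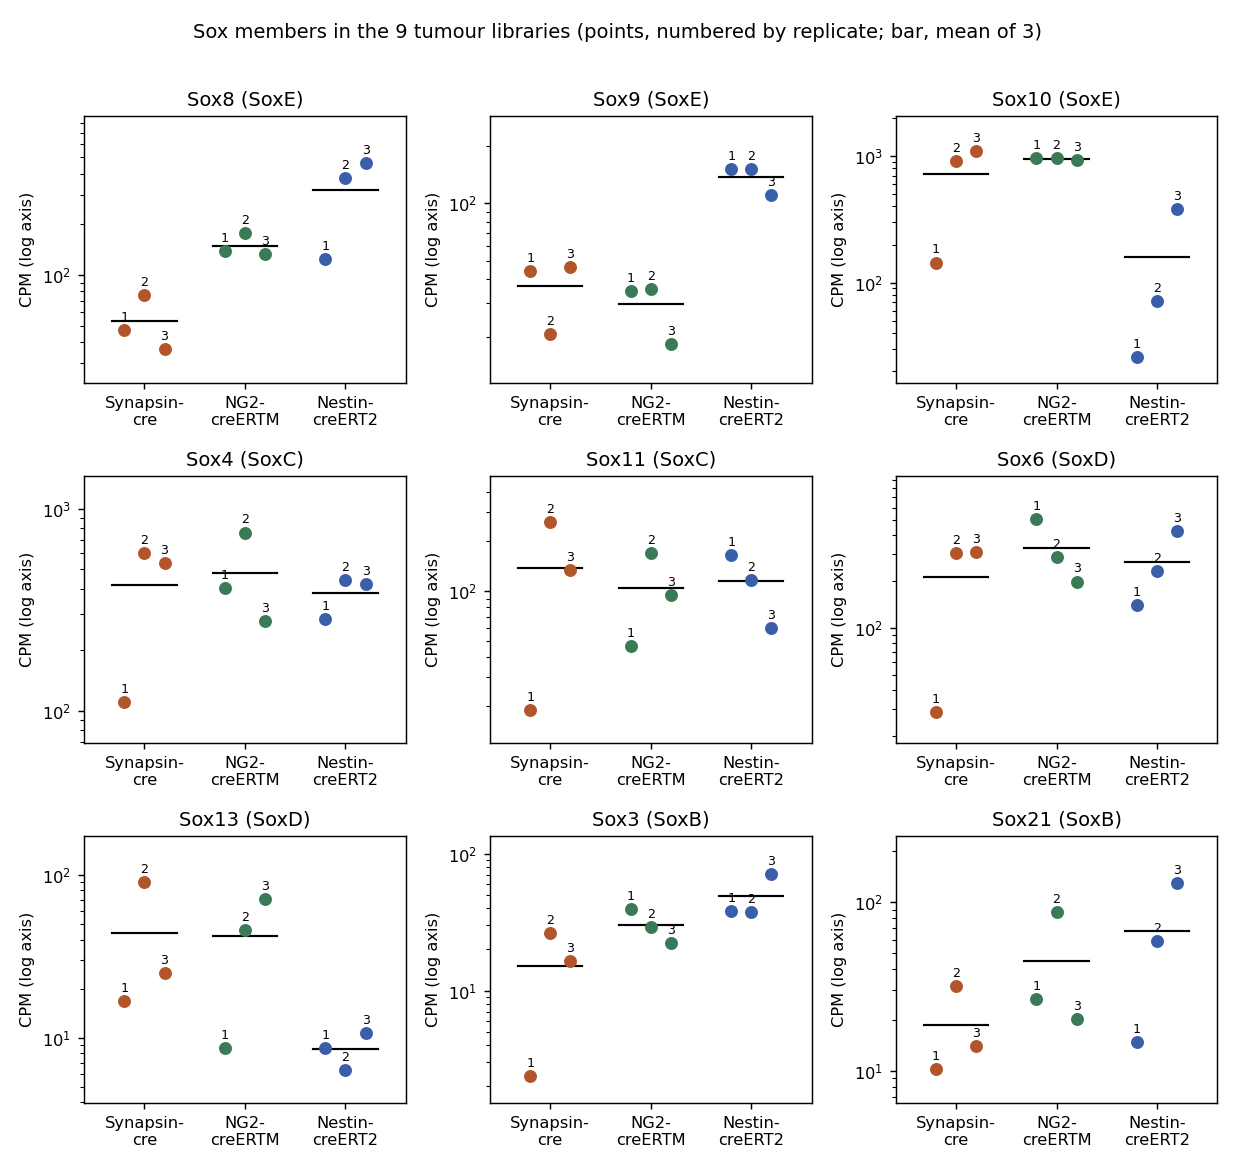
Level of each Sox gene in every library, in CPM on log axes. Points are libraries numbered by replicate, bars are the means of 3. Sox9 lies between 18.2 and 46.2 CPM in Synapsin-cre and NG2-creERTM and between 111 and 151 CPM in Nestin-creERT2, and Synapsin-cre replicate 1 is the lowest of the 9 libraries for Sox4, Sox11, Sox6, Sox3 and Sox21.

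Sox9, the gliogenic factor that is kept in astrocytes, separated the Nestin-creERT2 tumours from both other models. It was at 43.9, 20.5 and 46.2 CPM in Synapsin-cre tumours and at 34.7, 35.4 and 18.2 CPM in NG2-creERTM tumours, against 151, 150.4 and 111 CPM in Nestin-creERT2 tumours. All 6 libraries of the first 2 models lay below all 3 Nestin-creERT2 libraries. The means were 36.9 ± 14.2 CPM in Synapsin-cre, 29.5 ± 9.74 CPM in NG2-creERTM and 137 ± 23.0 CPM in Nestin-creERT2 (SD, n = 3 each). The edgeR log2 fold change was -1.90 ± 0.40 (SE) for Synapsin-cre over Nestin-creERT2, with an unadjusted p of 0.000963 and an adjusted p of 0.246. For NG2-creERTM over Nestin-creERT2 it was -2.22 ± 0.41, with an unadjusted p of 0.000341 and an adjusted p of 0.217. Neither passed the threshold with all 9 libraries in one edgeR fit. The NG2-creERTM difference passed in 4 other fits. It was -2.23 with an adjusted p of 0.0397 when edgeR was fitted on those 2 models alone (1.39% of genes called) and -2.23 with 0.0473 without Synapsin-cre replicate 1 (0.671% called). It was -2.36 with 0.0319 under limma voom with sample quality weights (0.892% called) and -2.21 with 0.000128 under DESeq2 (3.46% called). It did not pass in the remaining fits, such as limma voom without the weights and edgeR with unstranded counts or with any other single library left out. The Synapsin-cre difference passed under DESeq2 with an adjusted p of 0.00174 and under limma voom with sample quality weights with 0.0349, but not in edgeR without Synapsin-cre replicate 1, where it was -2.06 with an adjusted p of 0.0585 (1.48% called). Between Synapsin-cre and NG2-creERTM the log2 difference was 0.32 ± 0.39 (edgeR adjusted p = 0.764).

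Set against both other models together, a contrast added after these values were seen, Sox9 had a log2 difference of -2.06 ± 0.32 and ranked 17 of 17947 genes by p, with an edgeR adjusted p of 0.0985, in a contrast in which 3 genes (0.0167%) were called. Without Synapsin-cre replicate 1 this contrast gave -2.14 with an adjusted p of 0.0141 and 985 genes (5.33%) called. The 8 astrocyte markers, all detected in every library, summed to 7391 CPM in Synapsin-cre replicate 1 and to 2281 and 364 CPM in the other Synapsin-cre libraries. Their sums were between 1411 and 3015 CPM in NG2-creERTM and between 4186 and 5616 CPM in Nestin-creERT2. Their part in the Sox9 difference was not tested.

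Sox8, the SoxE gene that overlaps in function with both others, was ordered by model, lowest in Synapsin-cre. It measured 47.1, 76.7 and 36.5 CPM in Synapsin-cre tumours and 139, 177 and 133 CPM in NG2-creERTM tumours, against 125, 375 and 463 CPM in Nestin-creERT2 tumours. Every Synapsin-cre library lay below every library of the other models, while NG2-creERTM and Nestin-creERT2 overlapped through Nestin-creERT2 replicate 1. Means were 53.4 ± 20.8 CPM in Synapsin-cre, 149.5 ± 23.9 CPM in NG2-creERTM and 321 ± 175 CPM in Nestin-creERT2 (SD, n = 3 each). The log2 fold change of Synapsin-cre over Nestin-creERT2 was -2.59 ± 0.50 (edgeR unadjusted p = 0.000539, adjusted p = 0.230), the largest in size among the 9 Sox genes in that contrast. It passed under DESeq2, with -2.59 and an adjusted p of 0.000261, and gave -2.50 with an edgeR adjusted p of 0.0631 without Synapsin-cre replicate 1. Synapsin-cre over NG2-creERTM gave -1.48 ± 0.48 (edgeR adjusted p = 0.357), and NG2-creERTM over Nestin-creERT2 gave -1.10 ± 0.48 (edgeR adjusted p = 0.434).

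Sox8 lies at chr17:25565892-25570686 on the minus strand, and the antisense gene 2810468N07Rik at chr17:25570358-25575043 covers its start and the promoter printed above. The antisense gene was counted at 13.0 to 127 CPM, which came to 27.4 to 73.6% of the Sox8 count in the same library. Its log2 fold changes had the signs of those of Sox8, at -1.88 ± 0.50 for Synapsin-cre over Nestin-creERT2 (edgeR adjusted p = 0.318) and -1.09 ± 0.49 for Synapsin-cre over NG2-creERTM (edgeR adjusted p = 0.392). Of the counts in genes, 3.25 to 3.64% fell on the strand opposite to the gene.

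Sox10, the factor of oligodendrocytes, neural crest and Schwann cells, had the highest level per kb of the 9 genes in Synapsin-cre and in NG2-creERTM tumours, at 235 ± 165 CPM per kb in Synapsin-cre and 313 ± 7.62 CPM per kb in NG2-creERTM (SD, n = 3 each). It was at 144, 920.2 and 1089 CPM in Synapsin-cre tumours and at 974, 964 and 929.9 CPM in NG2-creERTM tumours, against 25.7, 72.1 and 379.8 CPM in Nestin-creERT2 tumours. The 3 NG2-creERTM libraries differed among themselves by a ratio of only 1.05 between the highest and the lowest, against 7.55 in Synapsin-cre and 14.8 in Nestin-creERT2. NG2-creERTM did not overlap with Nestin-creERT2. Synapsin-cre overlapped with Nestin-creERT2 only because Synapsin-cre replicate 1 lay below Nestin-creERT2 replicate 3. It lay above the other Nestin-creERT2 libraries. The log2 fold changes were 2.17 ± 0.98 for Synapsin-cre over Nestin-creERT2 (edgeR adjusted p = 0.466) and 2.59 ± 0.99 for NG2-creERTM over Nestin-creERT2 (edgeR adjusted p = 0.402). Without Synapsin-cre replicate 1 the Synapsin-cre value became 2.66 ± 0.86, with an edgeR adjusted p of 0.129. Synapsin-cre and NG2-creERTM differed by -0.41 ± 0.94 with all libraries and by 0.07 ± 0.86 without that replicate, so the sign rested on it.

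The 8 Schwann cell markers summed to 135 to 271 CPM in Synapsin-cre and to 90.2 to 842 CPM in NG2-creERTM, against 14.2 to 73.1 CPM in Nestin-creERT2. Of these, Pmp2 was at 0 in 6 of the 9 libraries. Fibroblast and meningeal markers summed to 189.8 to 268 CPM in Synapsin-cre tumours and to 447 to 929 CPM in NG2-creERTM, against 27.9 to 69.4 CPM in Nestin-creERT2. The part of these cell types in the Sox10 level was not tested.

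The make-up of the SoxE group was compared per exon length, as a description. Per kb of exon, Sox8, Sox9 and Sox10 together came to 73.0, 331 and 379.9 CPM per kb in Synapsin-cre and to 372, 381 and 352 CPM per kb in NG2-creERTM, against 85.1, 180.2 and 299.6 CPM per kb in Nestin-creERT2. Sox10 made up 64.8, 91.1 and 94.0% of that sum in Synapsin-cre and 85.8, 82.9 and 86.6% in NG2-creERTM, against 9.89, 13.1 and 41.5% in Nestin-creERT2. The Nestin-creERT2 shares all lay below those of the other 6 libraries, Synapsin-cre replicate 1 included. Sox8 was the leading SoxE gene in each Nestin-creERT2 library, at 47.3, 66.7 and 49.5% of the sum, against 20.7, 7.42 and 3.08% in Synapsin-cre and 11.95, 14.9 and 12.1% in NG2-creERTM. The ratio of Sox10 to Sox9 per kb ran from 4.45 to 60.8 in Synapsin-cre and from 36.9 to 69.2 in NG2-creERTM, against 0.231 to 4.65 in Nestin-creERT2. Nestin-creERT2 replicate 3, at 4.65, lay above Synapsin-cre replicate 1, at 4.45, so this ratio overlapped between those 2 models.

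**Figure D2:**
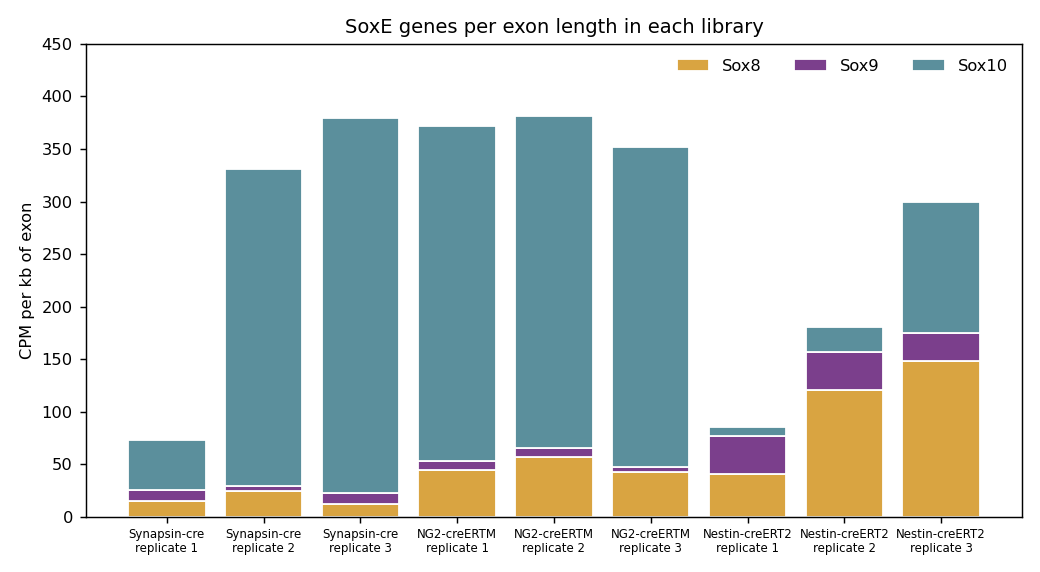
Stacked levels of Sox8, Sox9 and Sox10 in each library, in CPM per kb of exon. Sox10 makes up most of the bar in all Synapsin-cre and NG2-creERTM libraries, with shares of 64.8 to 94.0%, and 9.89 to 41.5% in the Nestin-creERT2 libraries, where Sox8 is the largest segment.

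The order of the 9 genes per kb was also described within each model. In NG2-creERTM, Sox10 (305 to 319 CPM per kb), Sox4 (57.7 to 159 CPM per kb) and Sox8 (42.6 to 56.7 CPM per kb) did not overlap with each other or with the 6 genes below them, which followed with overlapping neighbours from Sox6 at 22.3 ± 10.6 to Sox9 at 7.13 ± 2.36 CPM per kb. In Nestin-creERT2 the order began with Sox8 at 103 ± 56.1, Sox4 at 80.0 ± 17.9, Sox10 at 52.2 ± 63.1 and Sox9 at 33.2 ± 5.57 CPM per kb, and each of these overlapped with the next. In Synapsin-cre it ran from Sox10 to Sox21, the lowest at 4.92 ± 3.03 CPM per kb, and the ranges of all neighbours overlapped. Taken library by library, Sox10 still lay above Sox4 and Sox4 above Sox8 in each Synapsin-cre library. In replicate 1 they were at 47.3, 23.0 and 15.1 CPM per kb. The neighbours further down changed order between libraries.

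The SoxC genes, which are active in immature neurons and progenitors, overlapped between all models. Sox4 measured 110.2, 605 and 539 CPM in Synapsin-cre tumours and 405, 762 and 277 CPM in NG2-creERTM tumours, against 285, 441.3 and 425 CPM in Nestin-creERT2 tumours. It was the gene with the second highest mean per kb among the 9 in every model, at 87.2 ± 56.0 CPM per kb in Synapsin-cre, 100.4 ± 52.4 CPM per kb in NG2-creERTM and 80.0 ± 17.9 CPM per kb in Nestin-creERT2. Sox11 measured 19.0, 262 and 133 CPM in Synapsin-cre tumours and 46.1, 171 and 94.8 CPM in NG2-creERTM tumours, against 166, 117 and 60.0 CPM in Nestin-creERT2 tumours. The groups overlapped for both genes in all 3 contrasts. For Sox4, Synapsin-cre overlapped with Nestin-creERT2 through Synapsin-cre replicate 1 alone. Their log2 fold changes lay between -0.20 and 0.41, each smaller than its SE of 0.61 to 0.81, and the edgeR adjusted p-values were 0.869 to 0.968.

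Sox4 overlaps the lincRNA gene Gm26735 on the opposite strand, which itself was counted at 0.47 to 0.61% of the Sox4 count. Counted without regard to strand, Sox4 kept 34.9 to 51.7% of its count. Sox21, which overlaps the lincRNA gene Gm4675, kept 80.3 to 86.1%, and the other 7 genes had between 100% and 107%. The unstranded Sox4 level was 182 CPM in NG2-creERTM and 159 CPM in Nestin-creERT2, against 481 and 384 CPM on the gene's own strand in those models, so its level in CPM depends on the counting mode.

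The SoxD genes behaved unlike each other. Sox6, a modulator of SoxE activity in oligodendrocyte precursors and cartilage, measured 28.7, 305 and 312 CPM in Synapsin-cre tumours and 505, 288 and 199.9 CPM in NG2-creERTM tumours, against 139.9, 232 and 426 CPM in Nestin-creERT2 tumours. The groups overlapped in every contrast, and its log2 fold changes were -0.31 ± 0.77, 0.31 ± 0.77 and -0.62 ± 0.78 for Synapsin-cre over Nestin-creERT2, NG2-creERTM over Nestin-creERT2 and Synapsin-cre over NG2-creERTM (edgeR adjusted p = 0.918, 0.919 and 0.775). Sox13 was low in all Nestin-creERT2 tumours, with the lowest mean per kb of the 9 genes there at 1.98 ± 0.51 CPM per kb. It measured 16.7, 90.5 and 24.8 CPM in Synapsin-cre tumours and 8.66, 45.8 and 71.0 CPM in NG2-creERTM tumours, against 8.60, 6.31 and 10.7 CPM in Nestin-creERT2 tumours. Synapsin-cre lay above Nestin-creERT2 throughout, whereas NG2-creERTM replicate 1 fell within the Nestin-creERT2 range. The Sox13 log2 fold changes were 2.37 ± 0.82 for Synapsin-cre over Nestin-creERT2 (edgeR adjusted p = 0.381) and 2.29 ± 0.82 for NG2-creERTM over Nestin-creERT2 (edgeR adjusted p = 0.376), and 0.07 ± 0.78 between Synapsin-cre and NG2-creERTM (edgeR adjusted p = 0.980).

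The SoxB genes, which act in neural progenitors, had their highest means in Nestin-creERT2. Sox3 measured 2.39, 26.5 and 16.5 CPM in Synapsin-cre tumours and 39.8, 29.0 and 22.2 CPM in NG2-creERTM tumours, against 38.2, 37.7 and 70.9 CPM in Nestin-creERT2 tumours. Synapsin-cre lay below Nestin-creERT2 in every library, with a log2 fold change of -1.69 ± 0.71 (edgeR adjusted p = 0.443), which became -1.19 ± 0.43 (edgeR adjusted p = 0.160) without Synapsin-cre replicate 1. NG2-creERTM over Nestin-creERT2 gave -0.69 ± 0.69 (edgeR adjusted p = 0.759) and Synapsin-cre over NG2-creERTM gave -1.0 ± 0.70 (edgeR adjusted p = 0.568).

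Sox3 is X-linked, and the libraries differed in sex-linked transcripts. Xist, expressed from the inactive X chromosome, was at 1.02 to 1.28 CPM in Synapsin-cre, at 0.988, 1320 and 1.26 CPM in NG2-creERTM, and at 777 to 1808 CPM in Nestin-creERT2. The Y-linked Ddx3y was at 59.2 to 66.8 CPM in Synapsin-cre, at 5.54, 0.05 and 71.6 CPM in NG2-creERTM, and at 0 to 0.07 CPM in Nestin-creERT2. Sex and model cannot be told apart between Synapsin-cre and Nestin-creERT2.

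Sox21 measured 10.2, 31.8 and 14.0 CPM in Synapsin-cre tumours and 26.7, 86.9 and 20.1 CPM in NG2-creERTM tumours, against 14.8, 58.6 and 129 CPM in Nestin-creERT2 tumours. All 3 groups overlapped. The log2 fold changes were -1.86 ± 0.83 for Synapsin-cre over Nestin-creERT2 (edgeR adjusted p = 0.466), -0.60 ± 0.81 for NG2-creERTM over Nestin-creERT2 (edgeR adjusted p = 0.824) and -1.25 ± 0.82 for Synapsin-cre over NG2-creERTM (edgeR adjusted p = 0.540). Without Nestin-creERT2 replicate 3, the highest library, the value of NG2-creERTM over Nestin-creERT2 turned to 0.28.

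**Figure D3:**
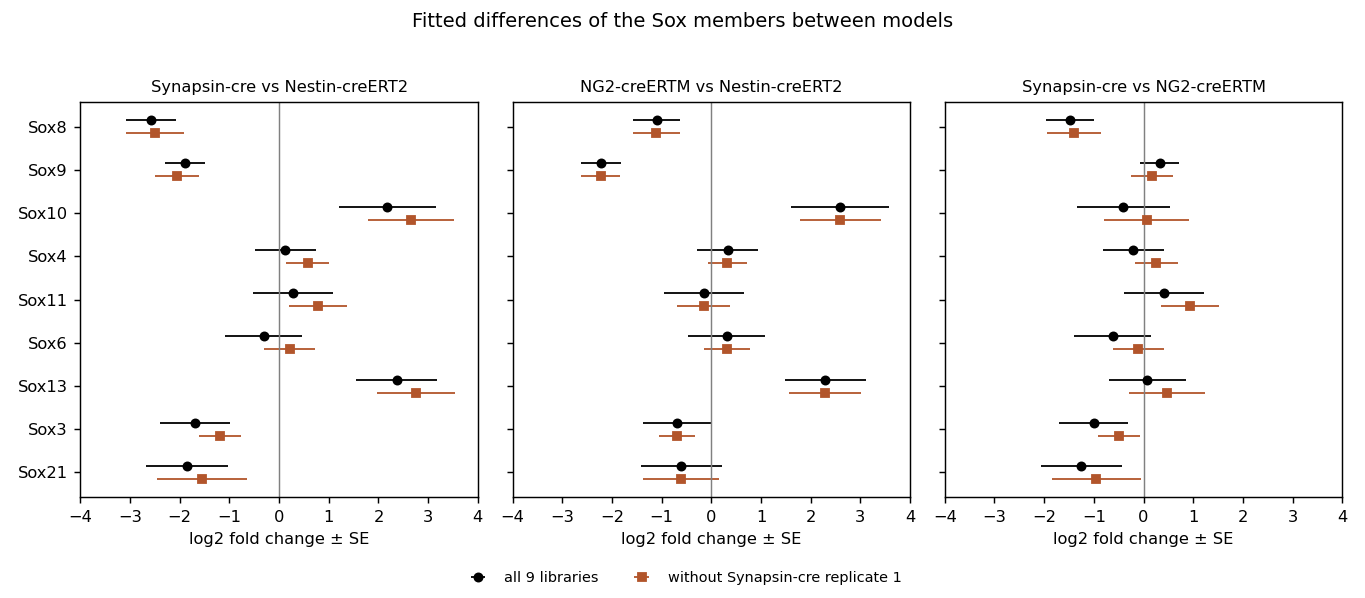
Fitted log2 fold change of each Sox gene with its SE in the 3 contrasts, from edgeR on all 9 libraries (circles) and without Synapsin-cre replicate 1 (squares). Sox8 and Sox9 lie furthest below 0 and Sox10 and Sox13 furthest above it for Synapsin-cre over Nestin-creERT2, and Sox9 at -2.22 and Sox10 at 2.59 are the extremes for NG2-creERTM over Nestin-creERT2.

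Across all 17947 genes, edgeR called 0 genes in each of the 3 contrasts (0.0%), and limma voom called 0 as well, with 1871, 1998 and 1607 genes at an unadjusted p below 0.05. At an unadjusted p below 0.05 edgeR had 1937 genes (10.8%) for Synapsin-cre over Nestin-creERT2, 2021 (11.3%) for NG2-creERTM over Nestin-creERT2 and 2298 (12.8%) for Synapsin-cre over NG2-creERTM. Of the 9 Sox genes, 4 were under that unadjusted threshold in the first contrast (Sox8, Sox9, Sox13 and Sox3), 4 in the second (Sox8, Sox9, Sox10 and Sox13) and 1 in the third (Sox8). DESeq2 called 506 genes (2.82%), 621 (3.46%) and 438 (2.44%) in the 3 contrasts, among them 2 Sox genes (Sox8 and Sox9) in the first, 1 (Sox9) in the second and 0 in the third. Limma voom with sample quality weights called 266 (1.48%), 160 (0.892%) and 0 genes, with Sox9 in both of the first 2 contrasts.

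By the ranges of the libraries alone, Synapsin-cre lay above Nestin-creERT2 without overlap for 1 Sox gene (Sox13), against 8.44% of all genes tested, and below it for 3 (Sox8, Sox9 and Sox3), against 6.29% of all genes. NG2-creERTM lay above Nestin-creERT2 for 1 (Sox10), against 11% of all genes, and below it for 1 (Sox9), against 14.2%. Synapsin-cre lay below NG2-creERTM for 1 (Sox8), against 5.74%. Both models together lay below Nestin-creERT2 for 1 gene, Sox9, as did 2.42% of all genes. Without Synapsin-cre replicate 1, Synapsin-cre lay above Nestin-creERT2 for 3 Sox genes (Sox10, Sox4 and Sox13), against 19.2% of all genes. It then lay below Nestin-creERT2 for 3 (Sox8, Sox9 and Sox3), against 21.0%. The contrasts share libraries, so their values for a gene are not independent of each other.

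The 6 pairs of genes within a subgroup were compared across the 9 libraries on the log2 CPM scale. Sox4 and Sox11 had a Pearson r of 0.76 (exact permutation p = 0.0217, adjusted over 6 pairs 0.0615) and a Spearman rho of 0.73 (exact permutation p = 0.0311, adjusted 0.177). After each model was centred on its own mean the r was 0.78. Without Synapsin-cre replicate 1 the r was 0.38 and the rho 0.62 (exact permutation, adjusted p = 0.418 and 0.393). The r was 0.28 without the 2 libraries farthest from the median Sox4 level. Leaving out extreme libraries narrows the range, which can lower r by itself, so these values do not show what the pooled r rests on. Sox3 and Sox21 had an r of 0.67 (exact permutation p = 0.0307, adjusted 0.0615) and a rho of 0.67 (exact permutation p = 0.0589, adjusted 0.177). Centred on the model means this r was 0.48. It was 0.65 without Synapsin-cre replicate 1 (exact permutation, adjusted p = 0.244) and 0.35 without the 2 libraries farthest from the median Sox3 level. Sox6 and Sox13 had an r of 0.04 (exact permutation p = 0.942, adjusted 0.942) and a rho of 0.03 (exact permutation p = 0.948, adjusted 0.948), with an r of 0.17 after centring. No pooled value is given for the 3 SoxE pairs, because Sox8 in Synapsin-cre and Sox9 in Nestin-creERT2 lay in ranges separate from the other models. Centred on the model means, Sox9 had an r of -0.41 with Sox8 and of -0.38 with Sox10, and Sox8 had an r of 0.61 with Sox10. The centred values are descriptions with no test.

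The other genes of these pathways were described as 8 lists, in which 0 genes passed the edgeR test on all 9 libraries in any of the 3 contrasts. Of 15 tested Schwann cell and neural crest genes, 12 had a positive log2 fold change for Synapsin-cre over Nestin-creERT2 and 13 for NG2-creERTM over Nestin-creERT2, with medians of 1.43 and 2.92 against 0.13 and 0.02 over all genes. The 2 negative for NG2-creERTM, Ret and Gap43, averaged 2.16 and 90.0 CPM there against 26.9 and 272 CPM in Nestin-creERT2. Both had an edgeR unadjusted p below 0.05. Foxd3, a neural crest factor, was at 38, 25.0 and 72.7 CPM in Synapsin-cre and at 14.3, 18.1 and 57.1 CPM in NG2-creERTM, against 0.06, 0.28 and 0.14 CPM in Nestin-creERT2, a log2 fold change of 8.11 ± 0.91 for Synapsin-cre over Nestin-creERT2 (edgeR adjusted p = 0.118). Erbb3, the neuregulin receptor of Schwann cells and oligodendrocytes and a known Sox10 target, averaged 317 ± 246 CPM in Synapsin-cre tumours and 487 ± 367 CPM in NG2-creERTM, against 4.33 ± 3.26 CPM in Nestin-creERT2 (SD, n = 3 each). Its log2 fold change for NG2-creERTM over Nestin-creERT2 was 6.81 ± 1.07 (edgeR adjusted p = 0.173). For both models over Nestin-creERT2, Foxd3 passed the edgeR test at 7.81 ± 0.88 (adjusted p = 0.0452). In edgeR without Synapsin-cre replicate 1, 3 genes of this list rose in Synapsin-cre over Nestin-creERT2 (1.48% of all genes called), among them Foxd3 and Erbb3 with log2 fold changes of 8.21 and 6.65 (adjusted p = 0.0198 and 0.0242). In that fit 5 genes of the list rose in NG2-creERTM over Nestin-creERT2 (0.671% of all genes called), among them Foxd3, Erbb3, the hedgehog ligand gene Dhh and the pigment enzyme gene Dct, with adjusted p-values of 0.0292 to 0.0462. In the other lists 4 genes passed there, named after their values were seen. For Synapsin-cre over Nestin-creERT2, Zfp536 rose by 2.77 on the log2 scale, while the myelin gene Mobp and the astrocyte water channel gene Aqp4 had -7.29 and -5.41 (edgeR adjusted p = 0.0326, 0.0274 and 0.0443). For NG2-creERTM over Nestin-creERT2, the cartilage collagen gene Col9a1 rose by 5.91 (edgeR adjusted p = 0.0459).

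Of 14 central myelin genes, which Sox10 drives together with Myrf, 10 were positive for Synapsin-cre over Nestin-creERT2 and 8 for NG2-creERTM over Nestin-creERT2, with medians of 0.51 and 1.15. Of these, 7 were positive for Synapsin-cre over Nestin-creERT2 without Synapsin-cre replicate 1, with a median of 0.0454. Myrf itself had 2.06 ± 0.61 for Synapsin-cre over Nestin-creERT2 (edgeR adjusted p = 0.329). Cldn11, the tight junction protein of myelin, had 3.25 ± 0.99 and Mbp, a main myelin protein, had 1.95 ± 0.64 for NG2-creERTM over Nestin-creERT2 (edgeR adjusted p = 0.324 and 0.344). The list was mixed, as 6 of its genes were negative in that contrast. Among these 6, Mobp averaged 18.7 CPM in NG2-creERTM against 184.5 CPM in Nestin-creERT2, and Ermn 1.94 against 15.4 CPM. Of 13 oligodendrocyte precursor and SoxE partner genes, 9 were negative for Synapsin-cre over Nestin-creERT2 (median -0.59, and -0.28 without Synapsin-cre replicate 1) and 6 for NG2-creERTM over Nestin-creERT2 (median 0.11). In that list Olig1, a factor of the oligodendrocyte lineage, had -2.05 ± 0.68, while the zinc finger factor Zfp536 had 2.31 ± 0.65 for Synapsin-cre over Nestin-creERT2 (edgeR adjusted p = 0.368 and 0.322).

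Of 15 astrocyte genes and Sox9 partners, 13 were negative for Synapsin-cre over Nestin-creERT2 and 12 for NG2-creERTM over Nestin-creERT2, with medians of -0.70 and -0.72. The Synapsin-cre median was -1.27 without Synapsin-cre replicate 1, with 13 negative. Hes5, a Notch effector, had -2.11 ± 0.82 and Nfix, a nuclear factor I gene of gliogenesis, had -0.87 ± 0.36 for Synapsin-cre over Nestin-creERT2 (edgeR adjusted p = 0.424 and 0.439). S100b, a calcium-binding protein found in astrocytes, oligodendrocyte precursors and Schwann cells, had the other sign, at 2.08 ± 0.76 for NG2-creERTM over Nestin-creERT2 (edgeR adjusted p = 0.383). Of the 10 tested cartilage genes that are targets of Sox9 with Sox5 and Sox6, 8 were positive for Synapsin-cre over Nestin-creERT2 (median 1.61) and 9 for NG2-creERTM over Nestin-creERT2 (median 3.85). The relation of these genes to the levels of Sox9, Sox5 and Sox6 was not tested. Acan, the cartilage proteoglycan aggrecan, was at 1826, 78.1 and 41.2 CPM in NG2-creERTM, against 9.34, 14.7 and 12.6 CPM in Nestin-creERT2 (log2 fold change 5.73 ± 1.49, edgeR adjusted p = 0.297). The cartilage collagen genes Col9a1 and Col11a1 had 5.91 ± 1.35 and 4.83 ± 1.35 in the same contrast (edgeR adjusted p = 0.255 and 0.313). NG2-creERTM replicate 1 was the highest of the 9 libraries for all 3.

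Of 15 immature neuron and SoxC partner genes, 9 were negative for Synapsin-cre over Nestin-creERT2 (median -0.53, and -1.20 with 12 negative without Synapsin-cre replicate 1) and 11 for NG2-creERTM over Nestin-creERT2 (median -0.62). Dpysl3, a cytoskeletal protein of growing axons, had -1.96 ± 0.50 and the POU factor Pou3f3 had -1.20 ± 0.37 for Synapsin-cre over Nestin-creERT2, and the neuronal RNA-binding protein gene Elavl4 had -1.99 ± 0.65 for NG2-creERTM over Nestin-creERT2 (edgeR adjusted p = 0.305, 0.341 and 0.345). Of 12 neural progenitor and SoxB partner genes, 9 were negative for Synapsin-cre over Nestin-creERT2 (median -0.36, and -0.14 with 7 negative without Synapsin-cre replicate 1) and 7 for NG2-creERTM over Nestin-creERT2 (median -0.66). Among them Fabp7, the fatty acid binding protein of radial glia, had -2.15 ± 0.54 and the POU factor Pou3f4 had -1.18 ± 0.40 for Synapsin-cre over Nestin-creERT2 (edgeR adjusted p = 0.285 and 0.375).

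Of 11 other Sox factors, 8 could be tested, of which 3 were positive for Synapsin-cre over Nestin-creERT2 (median -0.16) and 5 for NG2-creERTM over Nestin-creERT2 (median 0.36). With Synapsin-cre replicate 1 left out, 5 were positive for Synapsin-cre over Nestin-creERT2 and the median turned to 0.24. Sox1, a SoxB gene of neural progenitors, was at 42.6, 3.14 and 2.13 CPM in Synapsin-cre and at 0.300, 9.49 and 1.09 CPM in NG2-creERTM, against 74.9, 248 and 4.64 CPM in Nestin-creERT2. Its log2 fold change for NG2-creERTM over Nestin-creERT2 was -4.91 ± 1.83 (edgeR adjusted p = 0.393). The endothelial factors Sox18 and Sox17 had 1.31 ± 0.53 for NG2-creERTM over Nestin-creERT2 and 1.53 ± 0.72 for Synapsin-cre over Nestin-creERT2 (edgeR adjusted p = 0.415 and 0.484).

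For Synapsin-cre over NG2-creERTM the list medians were -0.62 for Schwann cell and neural crest genes, 0.43 for central myelin genes, -0.89 for oligodendrocyte precursor and SoxE partner genes, -0.21 for astrocyte genes, -1.92 for cartilage genes, 0.17 for immature neuron genes, -0.17 for neural progenitor genes and -0.07 for the other Sox factors, against 0.08 over all genes. The cartilage list had 9 of 10 genes with a negative sign. Without Synapsin-cre replicate 1 the central myelin median in this contrast was -0.75, with the opposite sign. In that fit the medians were -0.25 for Schwann cell and neural crest genes, -0.44 for oligodendrocyte precursor genes, -1.01 for astrocyte genes, 0.11 for immature neuron genes and -0.31 for the other Sox factors, against -0.01 over all genes.

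**Figure D4:**
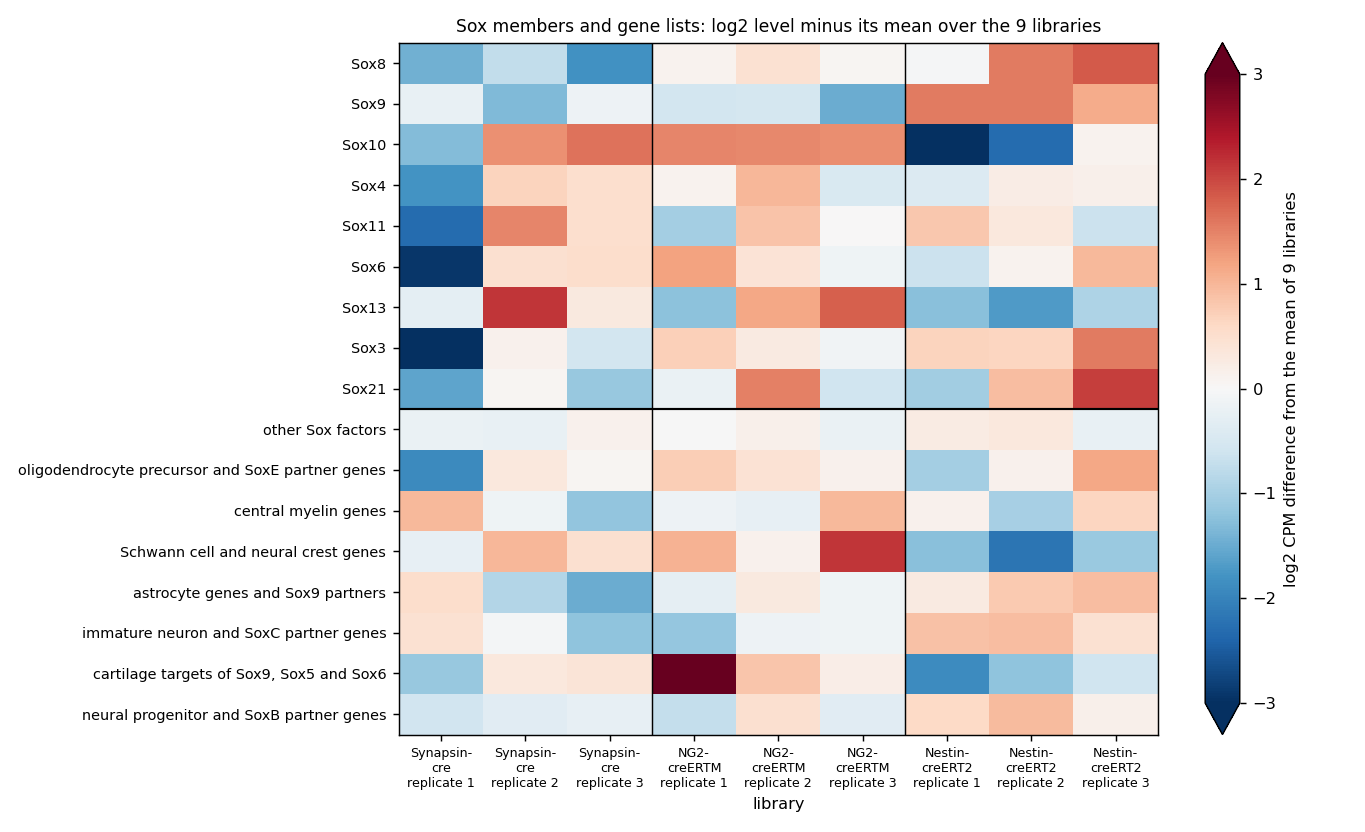
Each row is a Sox gene or the mean of a gene list, as log2 CPM minus its mean over the 9 libraries. Columns are libraries, and colours stop at 3 in either direction. Sox9 is above its mean in the 3 Nestin-creERT2 libraries alone. Sox10 is above its mean in the 3 NG2-creERTM libraries, in Synapsin-cre replicates 2 and 3 and, slightly, in Nestin-creERT2 replicate 3. The cartilage list is highest in NG2-creERTM replicate 1.

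The genes most like each Sox gene were found by Pearson r of log2 CPM over the 9 libraries among 12212 protein-coding genes with a mean of at least 5 CPM. These values describe 9 libraries and carry no test. Nearest to Sox10 were Plxnb3 (r = 0.97), a plexin receptor, which ran from 7.55 to 433 CPM, and Gal3st1 (r = 0.96), the enzyme that makes the myelin lipid sulfatide, followed by Cyp2j6 and Gpbp1l1. Nearest to Sox9 were Mrpl21 (r = 0.96), a mitochondrial ribosomal protein, and Elovl4 (r = 0.95), an enzyme that elongates fatty acids, followed by Ppp1r3d and Skida1. Nearest to Sox8 were Calcrl (r = 0.95), a receptor for adrenomedullin, Tfdp2, Ndufa1 and Rab11a.

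For Sox4 the nearest genes were Cep72 (r = 0.98) and Cbx2, a Polycomb protein, followed by Sumo2 and Nkiras2. For Sox11 they were Tmem251 (r = 0.95), Mvd, an enzyme of cholesterol synthesis, Smc6 and Pawr. For Sox6 they were Ldlrad3 (r = 0.97), Sapcd2, Usp1 and the homeobox gene Irx1, and for Sox13 Tspan15 (r = 0.97), Tbcd, Vps4b and Mdm2. For Sox3 they were B3gnt5 (r = 0.97), Ggh, Gna12 and the homeobox gene Irx2, and for Sox21 Sh3bp4 (r = 0.95), the Notch ligand Dll1, the homeobox gene Gbx2 and Ndufa1. Synapsin-cre replicate 1 was the lowest of the 9 libraries for all 4 genes nearest to Sox4, Sox11, Sox6 and Sox3. It was also the lowest for those Sox genes themselves.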

How the data were processed

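Per the submitters' processing notes, the deposited files are counts per gene made with STAR and HTSeq on mouse build mm10. Versions, the annotation and which tool made which column are not given in the sources used here. Each file has an unstranded count and a count per strand, and the strand that held most reads was used, because the other held 3.25 to 3.64% of the counts in genes. The 4 summary lines were left out, and reads not counted in a gene made up 17.9 to 27.3% of each library. This share was 25.1 to 27.3% in Synapsin-cre, 17.9 to 20.8% in NG2-creERTM and 18.0 to 24.0% in Nestin-creERT2. Its effect on the comparisons was not tested. Of 46517 identifiers, 46005 matched GENCODE vM21 on GRCm38, which gave symbols, exon lengths and coordinates, and the other 512 were kept without a symbol.

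CPM were computed from these counts with TMM in edgeR 4.0.16 under R 4.3.3. Genes kept by filterByExpr were tested with edgeR's quasi-likelihood test, all 9 libraries in one fit, SE being the log2 fold change divided by the square root of F. DESeq2 1.42.0 and limma 3.58.1 were alternatives. The fits and the pair test were checked on simulated data. Pair correlations used log2 CPM with a prior count of 2 and an exact permutation of pairings. Replicate numbers follow the order of the deposit and pair no libraries.

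The Sox genes, the gene lists and the comparisons were chosen with earlier results of these data known. Named genes are the 9 Sox genes, in each list the 3 with the smallest p where none passed, and the 4 protein-coding genes most like each Sox gene. Some genes that this rule takes are not reported here. Genes of lists or markers outside this rule were named after their values were seen. Depth was 23557398 to 41099967 counts in genes, and no interval from counting error was used.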

Additional observations from a re-analysis of the deposited data

How the results depend on the processing

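The Sox8 and Sox9 log2 differences from Nestin-creERT2 kept their negative sign, and those of Sox10 and Sox13 their positive sign, in every alternative fit, while the side of the threshold depended on the method. The 0 genes called by edgeR for Synapsin-cre over Nestin-creERT2 became 12 of 30806 genes without a low-count filter and 506 under DESeq2 (2.82% of genes, 2 Sox genes). They became 266 under limma voom with sample quality weights (1.48%, 1 Sox gene) and 1 with unstranded counts. With those 2 models alone they became 5, and 431 with Synapsin-cre replicate 1 also left out. For NG2-creERTM over Nestin-creERT2 the 0 became 12 of 30806 genes without a filter. It became 621 under DESeq2 (3.46%), 160 with the weights (0.892%) and 237 with those 2 models alone (1.39%), each with 1 Sox gene (Sox9). For Synapsin-cre over NG2-creERTM it became 438 under DESeq2 and 1 with those 2 models and Synapsin-cre replicate 1 left out. The 3 genes called for both models over Nestin-creERT2 became 64 of 30806 without a filter (1 Sox gene), 0 under limma voom and 5 with unstranded counts. Of 17947 genes, 565 were called in that contrast under DESeq2 (3 Sox genes) and 877 with the weights (2 Sox genes). Leaving out 1 library at a time gave 0 to 273, 0 to 124, 0 to 1 and 0 to 985 genes in these 4 contrasts, with 0 to 1 Sox genes called for NG2-creERTM over Nestin-creERT2 and 0 to 2 for both models together. Each highest count came without Synapsin-cre replicate 1, and with it out the common biological coefficient of variation was 0.503 in place of 0.612. The highest counts with Nestin-creERT2 in the contrast were 1.48% of genes for Synapsin-cre, 0.671% for NG2-creERTM and 5.33% for both models together. The cause of the differences between tools was not tested.

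The differences of Sox genes that changed sign were smaller than their SE. Not all such differences did, as Sox6 kept its negative sign for Synapsin-cre over NG2-creERTM. With 1 library left out, Sox4 ranged from -0.27 to 0.57, Sox11 from -0.62 to 0.78 and Sox6 from -0.69 to 0.21 for Synapsin-cre over Nestin-creERT2. For NG2-creERTM over Nestin-creERT2 Sox4 ranged from -0.17 to 0.61, Sox11 from -0.70 to 0.22, Sox6 from -0.13 to 0.83 and Sox21 from -1.53 to 0.28. For Synapsin-cre over NG2-creERTM Sox10 ranged from -0.86 to 0.0677, Sox4 from -0.59 to 0.29, Sox11 from -0.46 to 0.97 and Sox13 from -1.05 to 0.69. Under limma voom Sox4 was -0.21 and Sox11 -0.25 for Synapsin-cre over Nestin-creERT2, and Sox11 -0.0286 for Synapsin-cre over NG2-creERTM. With the weights Sox6 was 0.0568 for Synapsin-cre over Nestin-creERT2, and Sox9 was -0.0339 and Sox4 0.23 for Synapsin-cre over NG2-creERTM. With 2 models alone and Synapsin-cre replicate 1 left out, Sox6 was 0.21 for Synapsin-cre over Nestin-creERT2, and Sox10 was 0.0448 and Sox4 0.23 for Synapsin-cre over NG2-creERTM. In the same contrast Sox4 was 0.0103 with unstranded counts and Sox13 -0.0196 without a filter. The cause of these changes was not tested.

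Unstranded counts gave mean levels of 991 CPM for Sox10 in NG2-creERTM, 182 CPM for Sox4 in NG2-creERTM and 159 CPM for Sox4 in Nestin-creERT2. The r of Sox6 with Sox13 turned to -0.0705 without Synapsin-cre replicate 1 and to -0.45 without the 2 libraries farthest from the median of Sox6. The alternatives were not compared for the 3 SoxE pairs, for which no pooled r is given. No paired analysis was possible because the labels give no replicate numbers. Each model had 3 libraries, and the effect of depth on the calls was not tested.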
